A study of Mus musculus with 6 samples.

Results

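Epha8 and 9 further genes for Eph receptor tyrosine kinases were followed in mouse muscle cells with reduced SENP7. The 10 genes (Epha8, Epha1, Epha2, Epha3, Epha4, Epha7, Ephb2, Ephb3, Ephb4 and Ephb6) were taken by gene name from the deposited table of 55401 genes, which holds 14 Eph receptor genes in all. The members were chosen by their normalized counts and fold changes in the comparison described here. Epha8 was picked because it was nearly silent in control cells and read in every SENP7 siRNA library, and the other 9 were listed with the same contrast known, so that their differences between the groups are given as a description without p-values. The cells were C2C12 myotubes, which form when this mouse myoblast line is kept in low-serum medium, here with 2% horse serum. They were treated for 3 days with 100 pmol of either GL2 siRNA, a control directed against firefly luciferase, or an siRNA that targets SENP7, one of the proteases that take SUMO off modified proteins, with 3 libraries in each group that the submitters call biological replicates. Polyadenylated RNA was sequenced, and the libraries had 25223218 to 30865945 reads in genes.

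Eph receptors are the receptors of ephrins, ligands that are themselves bound to the surface of neighbouring cells. EphA receptors mainly bind the lipid-anchored ephrin-A proteins and EphB receptors the transmembrane ephrin-B proteins. On contact the receptor signals forward into its own cell and the ephrin can signal in reverse, which steers axons, sorts cells at tissue borders and shapes vessels. In skeletal muscle the system is known from motor axon guidance, where ephrin-A3 on slow fibres and EphA8 at nerve endings on fast fibres have been described in mice.

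Values below are normalized read counts, that is, reads divided by 1 factor per library, unless a level per kb of exon is named. Log2 fold changes are SENP7 siRNA over control siRNA on log2(normalized count + 1), with the standard error of the limma fit. Senp7, the siRNA target, had counts of 556, 616 and 649 in control and of 275, 279 and 347 in SENP7 siRNA libraries. It fell 2.02-fold (log2 fold change -1.02 ± 0.11, limma adjusted p = 0.000428), so that the target transcript was reduced and not removed. The cells carried the muscle markers on the list, with a summed count of 596840 to 631992 in control and 672156 to 749778 in SENP7 siRNA libraries, and 1 of the 8 rose in limma's fit, the muscle creatine kinase gene Ckm (10.2% of all genes tested rose). Of these 8, edgeR called 1 higher and DESeq2 called 4 higher, where they called 1472 and 1434 of all 14668 genes tested higher. In 4 of the 8 the SENP7 siRNA libraries all lay above the controls, which held for 19.3% of all genes tested. Of the 9 neuronal markers, Rbfox3 and Snap25 had no read in any library, and Syp, Elavl3 and Elavl4 had means below 10 over the 6 libraries. Nefl was at 44.3, 55.6 and 2.92 in control and 8.87, 5.35 and 9.47 in SENP7 siRNA libraries and did not meet the filter. Stmn2 (2550 in control and 2663 in SENP7 siRNA libraries) and Map2 (435 and 439) were well expressed and did not pass, and Tubb3 fell from 1682 to 786 (log2 fold change -1.09 ± 0.17, limma adjusted p = 0.00263). Control replicate 3 differed more from control replicate 1 (chi-square per gene of 38.9) than replicates 1 and 2 did from each other (7.54). SENP7 siRNA replicate 3 likewise stood apart, with 13.8 from replicate 1 and 12.6 from replicate 2, against 1.75 between those.

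Epha8 lies on the minus strand of chromosome 4 from 136929419 to 136956816 (ENSMUSG00000028661.8, GRCm38), and no exon of another gene overlaps its exons. The stretch before its annotated start is shown beside those of Epha1, the member with the largest difference in the other direction, and Ephb2, a member that lies 93.4 kb from Epha8 on the same chromosome. Each is 250 bases before the RefSeq start (GRCm38.p6), written 5′ to 3′ on the strand of the gene. Capitals mark matches to the E-box CANNTG, a general motif of basic helix-loop-helix factors that reads the same on both strands. Which factor could bind a match was not tested.
Epha8 (chr4:136956817-136957066, minus strand): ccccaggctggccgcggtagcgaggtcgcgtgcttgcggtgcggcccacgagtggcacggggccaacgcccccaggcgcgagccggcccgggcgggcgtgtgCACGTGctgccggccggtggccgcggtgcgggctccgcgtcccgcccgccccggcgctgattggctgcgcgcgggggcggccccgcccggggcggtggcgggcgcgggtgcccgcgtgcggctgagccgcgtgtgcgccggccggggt
Epha1 (chr6:42373269-42373518, minus strand): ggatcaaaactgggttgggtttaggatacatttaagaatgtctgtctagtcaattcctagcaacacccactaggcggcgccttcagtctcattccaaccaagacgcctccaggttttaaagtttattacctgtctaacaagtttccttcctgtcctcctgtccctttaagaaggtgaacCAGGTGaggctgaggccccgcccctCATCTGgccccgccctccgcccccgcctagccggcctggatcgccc
Ephb2 (chr4:136836013-136836262, minus strand): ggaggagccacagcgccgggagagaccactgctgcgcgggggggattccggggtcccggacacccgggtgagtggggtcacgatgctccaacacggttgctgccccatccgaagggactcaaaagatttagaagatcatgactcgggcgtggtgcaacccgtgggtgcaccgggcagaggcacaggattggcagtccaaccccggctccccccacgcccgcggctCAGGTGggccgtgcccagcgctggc
The Epha8 stretch is the most GC-rich of the 10 members. G and C made up 84.0% of its bases, against a median of 52.4% over 32851 stretches of the same length before RefSeq starts, which placed it at the 99.7th percentile, and it held 46 CG dinucleotides against a median of 6. The other 9 members held between 9 and 27 CG dinucleotides, with at most 76.8% G and C. Epha8 and Ephb2 each held 1 E-box match and Epha1 held 2. An E-box match stood in 6 of the 10 members and in 66.2% of all such stretches, so that its presence does not set these genes apart. Whether the annotated start is the one used in these cells was not tested.

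In control myotubes Epha8 was close to silent. Its normalized counts were 1.01, 0 and 0 in control replicates 1, 2 and 3, a total of 1 read. In SENP7 siRNA replicates 1, 2 and 3 they were 128, 122 and 72.9, a total of 335 reads, so every SENP7 siRNA library lay far above every control library. The ratio of the group totals, corrected for depth, was 314 with an exact (Clopper-Pearson) 95% interval of 55.9 to 12426, which covers counting error only. The log2 fold change of 6.38 ± 0.39 depends on the added constant, and was 7.18 with a pseudocount of 0.5 and 4.36 with a pseudocount of 5. The authors' deposited table gives 2.79 for the same gene, where DESeq2 on the recovered reads gave 8.19. Why the deposited value is smaller was not tested, so the sizes are not compared. SENP7 siRNA replicate 3 had the lowest Epha8 count of its group and the highest remaining Senp7 count (347 against 275 and 279). That library also stood apart from its group over all genes, and whether its Epha8 and Senp7 counts are linked was not tested. In bulk RNA, a few cells with much Epha8 and many cells with little cannot be told apart.

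**Figure D1:**
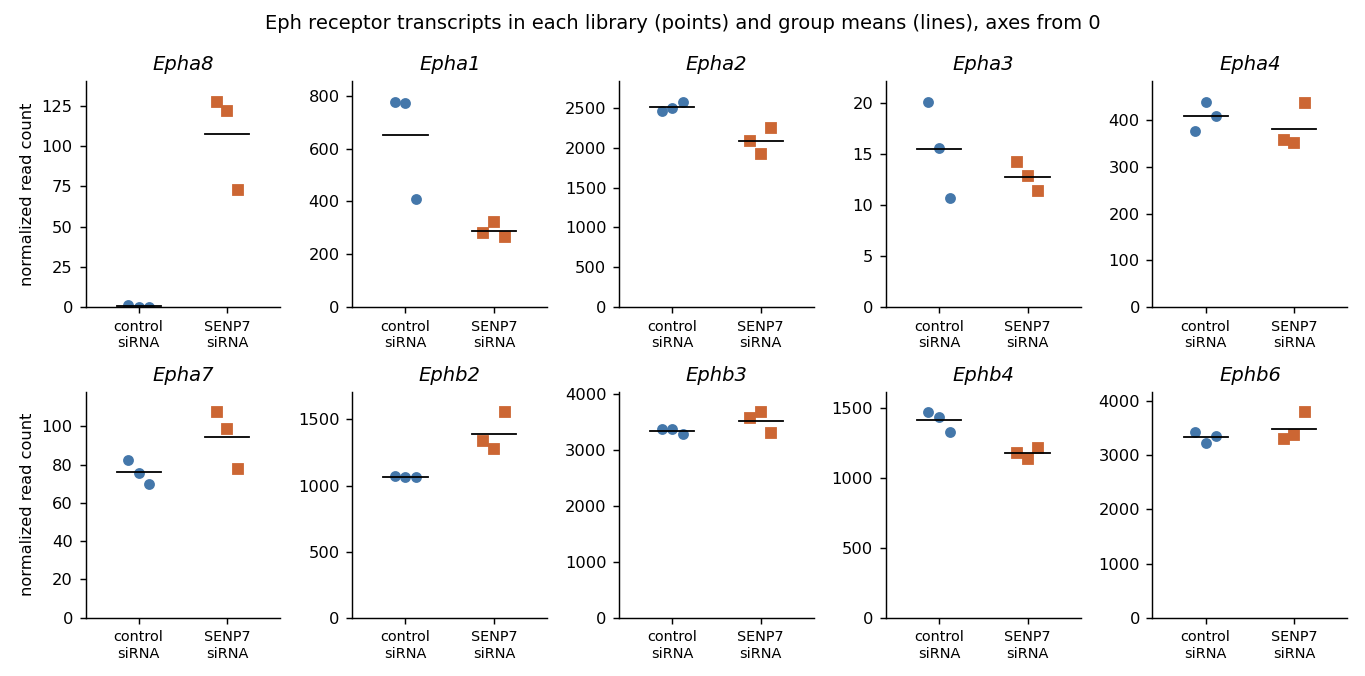
Normalized read counts (vertical axes, each from 0) of the 10 Eph receptor members in the 3 control siRNA libraries (circles) and the 3 SENP7 siRNA libraries (squares), with a line at each group mean. Epha8 sits at 0 to 1.01 in control and at 72.9 to 128 in SENP7 siRNA libraries, and control replicate 3 lies below the other controls in Epha1.

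Among the remaining EphA receptors, Epha1 and Epha2 were lower in every SENP7 siRNA library, and Epha3, Epha4 and Epha7 overlapped between the groups. Epha1, the first receptor of the family to be described, lies on chromosome 6 from 42358487 to 42373268 on the minus strand. It had 778, 772 and 408 counts in control against 279, 323 and 265 after SENP7 siRNA. Control replicate 3 was closer to the SENP7 siRNA libraries than to the other controls. The mean was 653 ± 212 (SD, n = 3) against 289 ± 30.1, 2.26-fold lower, and 2.68-fold lower without control replicate 3. Exons of Zyx on the opposite strand cover 236 bases (6.01%) of its exons. Zyx, a focal adhesion gene, was at 21591, 20667 and 17247 in control and at 16549, 17058 and 17094 in SENP7 siRNA libraries, and the strand setting of the counting is not given in the sources used here, so the part of Zyx reads in the Epha1 counts was not tested.

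Epha2, a receptor of ephrin-A1 that is widespread in epithelia, was the most abundant EphA transcript. Counts of 2466, 2502 and 2579 in control stood against 2088, 1919 and 2248 after SENP7 siRNA, a small difference (log2 fold change -0.27 ± 0.07) without overlap. Epha4, which binds ephrins of both classes and guides motor axons in the limb, was at 377, 439 and 408 against 358, 351 and 437. Epha7, known from repulsion between axons in the brain, was at 82.6, 75.7 and 70.0 against 107, 98.4 and 77.7. In both genes the groups overlapped, and 1 SENP7 siRNA library, replicate 3, lay apart from replicates 1 and 2. Epha3, another ephrin-A receptor, was near the filter on low counts, at 20.2, 15.6 and 10.7 against 14.2, 12.8 and 11.4.

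Of the EphB receptors, Ephb2 was higher and Ephb4 lower in every SENP7 siRNA library, each by a small step. Ephb2, a receptor of ephrin-B proteins at synapses, lies on chromosome 4 from 136647539 to 136835988 on the minus strand. Its control counts were nearly identical, at 1071, 1062 and 1066, and its SENP7 siRNA counts were 1334, 1279 and 1555 (log2 fold change 0.38 ± 0.08). Ephb4, the ephrin-B2 receptor of venous endothelium, went the other way, with 1469, 1434 and 1330 in control and 1178, 1136 and 1212 in SENP7 siRNA libraries (log2 fold change -0.26 ± 0.06). Ephb3 and Ephb6 were at similar levels in both groups. Ephb3 was at 3369, 3384 and 3287 against 3569, 3675 and 3297, and its log2 fold change was 0.07 ± 0.06. Ephb6, whose kinase domain is catalytically inactive, was at 3421, 3228 and 3355 against 3296, 3367 and 3793, with a log2 fold change of 0.06 ± 0.07.

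All 10 members passed the filter of 10 normalized counts in 3 libraries, Epha8 through the SENP7 siRNA libraries alone. In the fit over all genes, 2 of them were called higher and 3 lower at an adjusted p below 0.05, where 20.9% of all 14668 genes tested were called (10.2% higher and 10.7% lower). The same 5 genes, Epha8, Ephb2, Epha1, Epha2 and Ephb4, were those without overlap between the groups, which held for 39.6% of all genes tested (19.3% with the SENP7 siRNA libraries higher and 20.4% with them lower). Because the list was drawn up with this contrast known, nothing is read from these counts. The median log2 fold change of the 10 members was -0.019, against -0.0025 over all genes tested.

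The table held 4 further Eph receptor genes that were not on the list. Epha5 and Epha6 had no read in any library, and Epha10 had 1 read in all, in SENP7 siRNA replicate 1. A count of 0 allows up to 3 reads. Ephb1, a receptor of ephrin-B proteins in neurons (chromosome 9 from 101922128 to 102354693, minus strand), had counts of 5.04, 4.45 and 3.89 in control and 24.8, 24.6 and 37.9 in SENP7 siRNA libraries. It was higher in 3 of 3 SENP7 siRNA libraries, with a log2 fold change of 2.44 ± 0.29 and a read ratio of 6.55 (exact 95% counting interval 3.65 to 12.8). Like Epha8, it met the filter through the SENP7 siRNA libraries alone, which selects for a difference, so its values are given as a description. Unlike Epha8, its count was highest in SENP7 siRNA replicate 3.

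Scaled to exon length, Ephb6 was the most abundant Eph transcript in both groups, at 884 ± 26.1 normalized counts per kb in control and 924 ± 71.3 in SENP7 siRNA libraries (SD, n = 3). In control it was followed by Epha2 (538), Ephb3 (504), Ephb4 (304), Epha1 (166), Ephb2 (84.6), Epha4 (50.7), Epha7 (7.70), Epha3 (1.78), Ephb1 (0.637) and Epha8 (0.0713), all per kb. Each of these lay above the next in all control libraries. In the SENP7 siRNA libraries Ephb3 (529 per kb) stood above Epha2 (446), Ephb2 (110) above Epha1 (73.6), and Epha8 (22.8 ± 6.39) above Epha7 (9.56), again with every library above the next gene. Epha8 thus went from the last detected receptor to the eighth of 14, yet it made up 0.949% ± 0.291 of the summed Eph level per kb. Among the 14668 genes tested its level per kb stood at percentile 19.8 in SENP7 siRNA libraries, where Ephb6 stood at percentile 90.1. Exon length here is the union of annotated exons, so a gene with long unused exons has its level understated.

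**Figure D2:**
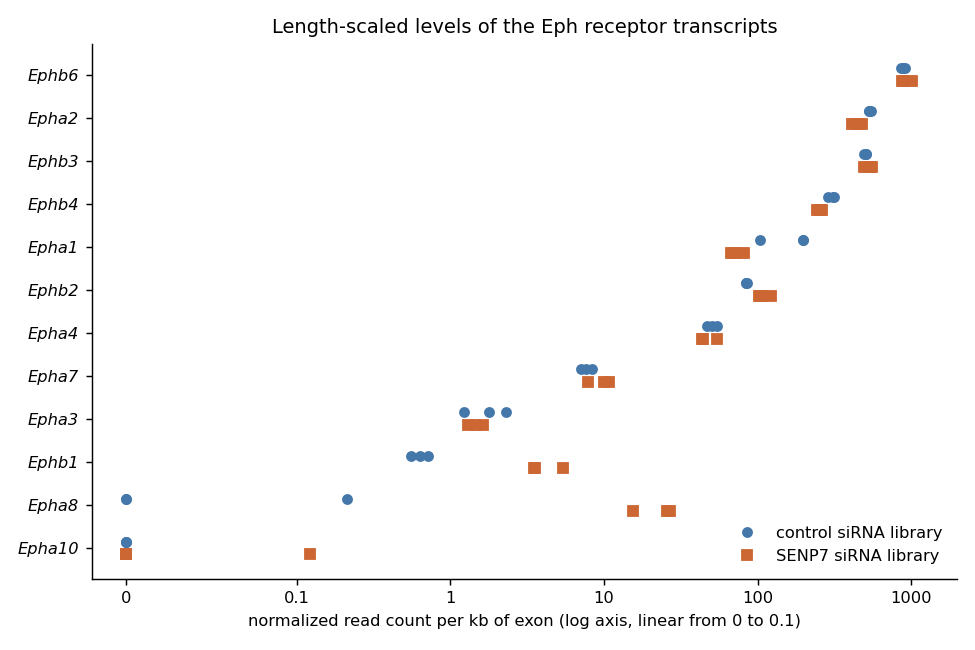
Normalized read counts per kb of exon (horizontal, log axis that is linear from 0 to 0.1) of the 12 Eph receptor genes with a read, in control siRNA libraries (circles) and SENP7 siRNA libraries (squares). Epha8 and Ephb1 move to the right in SENP7 siRNA libraries, and Ephb6 is highest in both groups.

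The summed level of all Eph receptors overlapped between the groups, while the EphB share of it was higher in every SENP7 siRNA library. Per kb, the sums in control were 2600, 2555 and 2470, and those after SENP7 siRNA were 2376, 2369 and 2519, with overlap. EphA genes summed to 783, 796 and 714 per kb in control and to 602, 574 and 627 in SENP7 siRNA libraries, without overlap. Epha1 went from 6.50% to 3.05% of the summed Eph level and Epha2 from 21.2% to 18.4%. EphB genes summed to 1816, 1759 and 1756 against 1774, 1795.5 and 1892. The EphB share was 69.9% ± 1.12 in control and 75.2% ± 0.563 in SENP7 siRNA libraries (SD, n = 3), given as a description since it rests on the same contrast.

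Among the ligands, 2 ephrin-A transcripts fell and 1 ephrin-B transcript rose. All 8 ephrin genes passed the filter, and in limma's fit with Benjamini-Hochberg adjustment over all genes 1 rose, 2 fell and 5 did not pass (37.5% called, against 20.9% of all genes), with a median log2 fold change of -0.15 against -0.0025 over all genes tested. Efna3, the gene of ephrin-A3, was at 31.2, 36.7 and 40.9 in control and at 11.5, 11.8 and 10.4 in SENP7 siRNA libraries. It fell 3.23-fold (log2 fold change -1.60 ± 0.22, limma adjusted p = 0.0016), and exons of the little expressed Gm15998 on the opposite strand cover 14.1% of its exons. Efna2 fell 1.62-fold, from counts of 194, 198 and 161 to 98.5, 116 and 128 (log2 fold change -0.69 ± 0.14, limma adjusted p = 0.00901), and missed the threshold without control replicate 2 (adjusted p = 0.051, where the settings ranged from 0.00123 to 0.051). The SENP7 siRNA values of both genes, and those of Efna4, lay below every control value, which held for 20.4% of all genes tested.

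Efnb1, the ephrin-B1 gene, was at 908, 898 and 900 in control and at 1066, 1098 and 1002 in SENP7 siRNA libraries, and rose by a small step (log2 fold change 0.23 ± 0.06, limma adjusted p = 0.0301). The call of Efnb1 did not hold when low genes were kept (adjusted p = 0.0734), when control replicate 1 or 2 was dropped (0.0506 and 0.0992) or when SENP7 siRNA replicate 1 or 2 was dropped (0.122 and 0.142). The settings ranged from 0.0205 to 0.142. Efna1, the ligand of EphA2, had a log2 fold change of -0.23 ± 0.13 and did not pass, although it did without control replicate 3 (adjusted p = 0.0162, the lowest of a range up to 0.537). Efna4 (-0.28 ± 0.11) and Efnb3 (0.26 ± 0.22) did not pass either. Efnb2, the partner of EphB4, was at -0.07 ± 0.09 and Efna5 at -0.07 ± 0.13, and both changed sign when 1 control library was left out. Without control replicate 3 there were 4 ephrin genes that fell, and 1 without control replicate 2. In the same settings 2413 and 754 of all 14668 genes tested fell, against 1570 with all libraries.

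Per kb of exon, Efnb1 (261 ± 1.59 in control, 306 ± 14.1 in SENP7 siRNA libraries) and Efnb2 (252 ± 32.6 and 239 ± 4.98) were the most abundant ephrin transcripts. In control the values of Efnb1 and Efnb2 overlapped, as did those of Efna1 (138) and Efna4 (125). Efna3 stood seventh of the 8 in control, at 14.9 ± 1.98 per kb, and last in the SENP7 siRNA libraries, at 4.62 ± 0.296. The ephrin-A genes summed to 438, 405 and 368 per kb in control and to 309.7, 306 and 328 in SENP7 siRNA libraries, without overlap. The ephrin-B sums overlapped, at 532, 551 and 486 per kb against 566, 568 and 535, as did the sums over all ephrins, at 969.7, 956 and 854 against 875, 874 and 863.

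**Figure D3:**
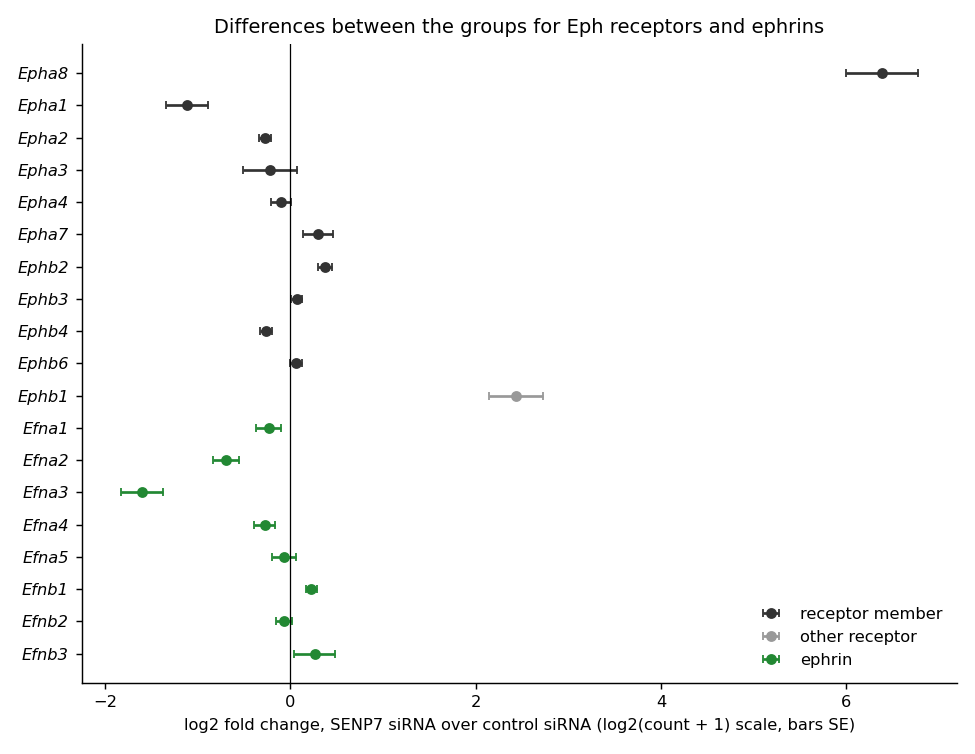
Log2 fold change (horizontal, SENP7 siRNA over control siRNA on the log2(count + 1) scale) of the 10 Eph receptor members (black), Ephb1 (grey) and the 8 ephrins (green), with bars of 1 SE from the limma fit. Epha8 stands at 6.38, Ephb1 at 2.44, Efna3 at -1.60 and Epha1 at -1.12, and the other genes lie within 1 unit of 0.

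Of the effectors that act downstream of activated Eph receptors, more fell than rose. Of 36 genes on that list, 32 were tested, of which 4 rose, 8 fell and 20 did not pass (37.5% called, against 20.9% of all genes tested), with a median log2 fold change of -0.09 against -0.0025 over all genes tested. Ngef, which encodes ephexin-1, the exchange factor that links EphA receptors to RhoA, was at 803, 818 and 852 in control and at 345, 303 and 325 in SENP7 siRNA libraries. It fell 2.54-fold (log2 fold change -1.35 ± 0.08, limma adjusted p = 2.00e-05), and passed in all 15 alternative settings. The kinases Src (log2 fold change -0.50 ± 0.06, limma adjusted p = 0.000588) and Fyn (-0.46 ± 0.09, limma adjusted p = 0.00749), which are recruited to Eph receptors, fell by less. Grb10, an adaptor that binds receptor kinases, was the largest rise, from 21.3 ± 6.07 to 56.0 ± 6.52 (log2 fold change 1.38 ± 0.23, limma adjusted p = 0.00398). These 4 genes were named for the smallest adjusted p of the list, so that their groups did not overlap adds nothing. Groups did not overlap in 17 of the 32 tested effectors and in 39.6% of all genes tested.

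The other falling effectors were Arhgef19 (-0.32), a relative of ephexin-1, the phosphatase Ptpn11 (-0.30), the kinases Rock2 (-0.31) and Rock1 (-0.18) and the Ras GTPase activator Rasa1 (-0.24), all as log2 fold changes. The other rising ones were Vav3 (0.31) and Itsn1 (0.28), both exchange factors for small GTPases, and Anks1 (0.23), an adaptor known to bind EphA8. They were chosen for naming after their values were seen. The GTPases Rhoa, Rac1 and Cdc42 did not pass. Dropping control replicate 1 left 2 rising effectors, and dropping control replicate 2 or any 1 SENP7 siRNA library left 1. Falling effectors numbered 4 when control replicate 2 or SENP7 siRNA replicate 1 was dropped and 3 when SENP7 siRNA replicate 2 was. The calls over all genes dropped too, to 805 to 1198 rising in the former settings and 754 to 831 falling in the latter. With all libraries they were 1492 and 1570. Without control replicate 3, 5 effectors rose and 11 fell, where 2289 and 2413 of all genes did. These shifts are therefore not read as a trait of the list.

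**Figure D4:**
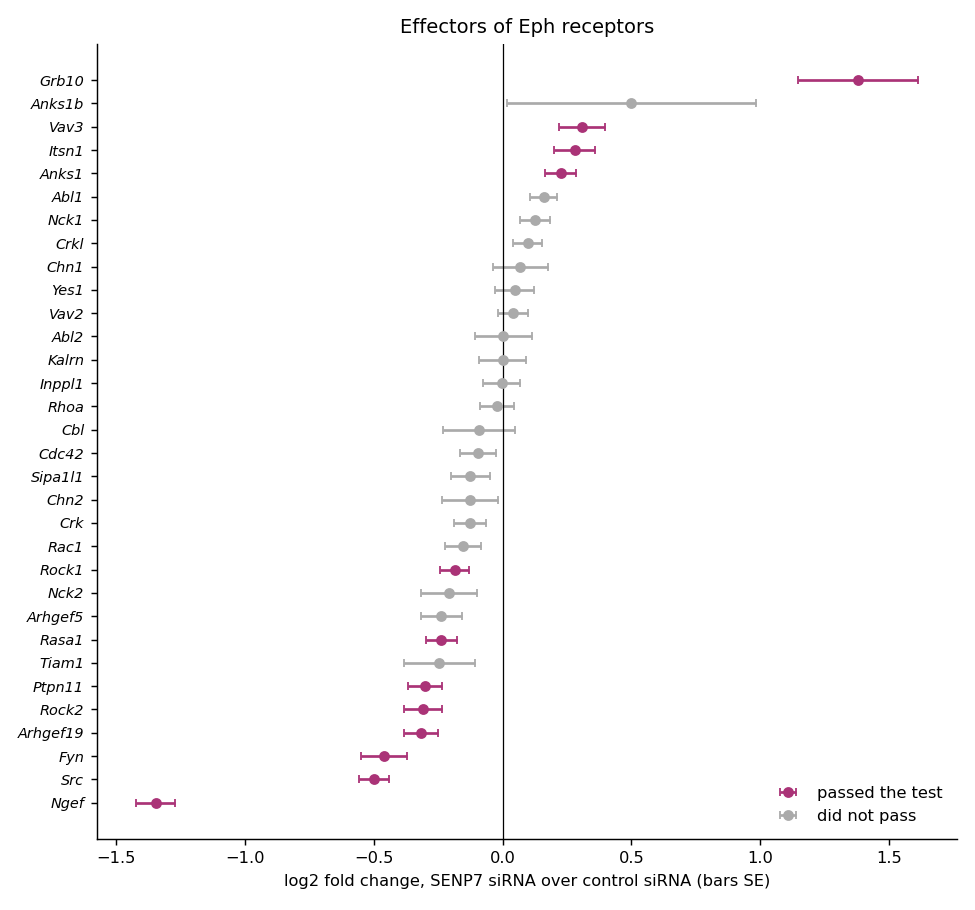
Log2 fold change (horizontal, SENP7 siRNA over control siRNA) of the 32 tested effectors of Eph receptors, with bars of 1 SE from the limma fit, coloured where the adjusted p was below 0.05. Ngef, at -1.35, and Grb10, at 1.38, lie farthest from 0, and 8 of the 12 coloured genes lie below it.

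For genes that process ephrins and Eph receptors or carry the reverse signal, the count called was near the background. Of 14 tested, 2 rose and 0 fell by limma (14.3% called, against 20.9% of all genes), and edgeR and DESeq2 also called 2 higher and 0 lower. In limma's fit 2 fell at an unadjusted p below 0.05, for which the share over all genes was not counted. Nothing is read from these counts. Zhx2, a partner of the ephrin-B1 tail, was at 1383 ± 144 and 1694 ± 41.1 (log2 fold change 0.30 ± 0.08, limma adjusted p = 0.0265). Psen2, a catalytic subunit of gamma-secretase, was at 575 ± 38.4 and 693 ± 16.8 (log2 fold change 0.27 ± 0.07, limma adjusted p = 0.0291). Both calls were lost without any 1 library except control replicate 3, with adjusted p of 0.067 to 0.109 for Zhx2 and 0.0567 to 0.117 for Psen2. Rgs3 (-0.21 ± 0.09) and Sdcbp (-0.13 ± 0.06), which bind ephrin-B tails, did not pass, although Rgs3 did without control replicate 3.

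No other tested gene around Epha8 rose by a similar amount. Within 500 kb there were 32 annotated genes, of which Ephb2 and 9 others met the filter. Ephb2, itself a member, was higher in every SENP7 siRNA library, by a small step (log2 fold change 0.38 ± 0.08). None of the 9 rose by limma, edgeR or DESeq2, where 10.2% of all genes tested rose by limma. At an unadjusted p below 0.05 in limma's fit, 0 rose and 3 fell. Nothing is read from counts over these 9 genes. The nearest was Zbtb40, 22.9 kb before the start of Epha8, at 563, 572 and 636 in control and 578, 566 and 593 in SENP7 siRNA libraries (log2 fold change -0.03 ± 0.07). Its sign turned without control replicate 3. The complement genes C1qa, C1qb and C1qc, which lie between Ephb2 and Epha8, had no read in any library. Htr1d, a serotonin receptor gene, fell (log2 fold change -0.84 ± 0.24, limma adjusted p = 0.0353), a call lost in 8 of 14 settings, each left-out library among them (adjusted p of 0.0555 to 0.119). Luzp1 (-0.18), the demethylase gene Kdm1a (-0.07), Wnt4 (-0.48), Cdc42 (-0.10), 2810405F17Rik (-0.31), Gm13010 (-0.35) and 1700013G24Rik (0.20) did not pass, although Wnt4 passed in 3 settings and Luzp1 in 2.

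**Figure D5:**
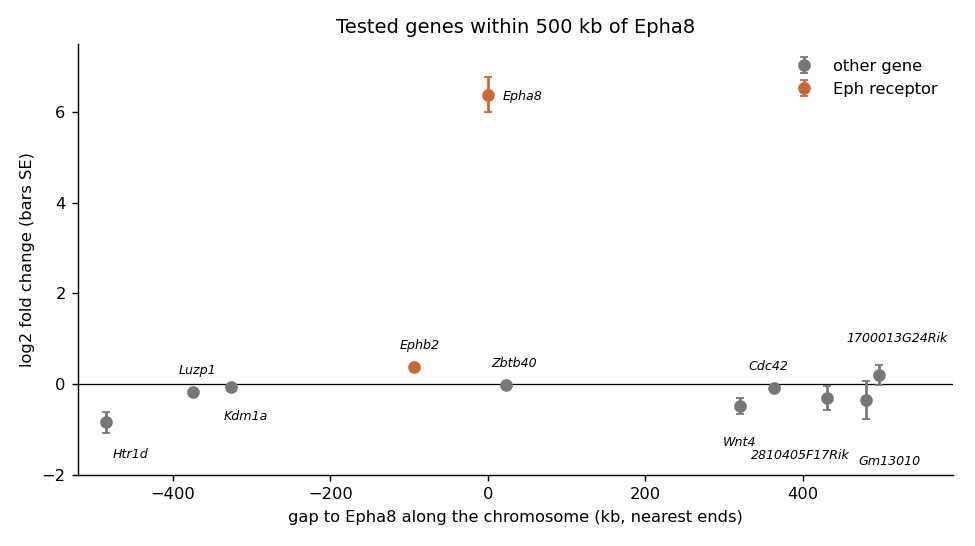
Log2 fold change (vertical, bars of 1 SE from the limma fit) of the tested genes within 500 kb of Epha8 against the gap between the nearest ends of the 2 genes (horizontal, in kb, negative towards Ephb2). Epha8 stands at 6.38 and every other gene lies between -0.84 and 0.38.

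The 5 genes whose log2 values over the 6 libraries were most like those of Epha8 were Maged1 (Pearson r = 0.9989), Mgst3 (0.9985), Tmem38b (0.9978), Macrod1 (0.9977) and Ddx39b (0.9977). They are given as a description, since 1104 of 14658 genes had an r over 0.9 and a shared difference between the 2 groups is enough to give one. The sizes differed widely. Maged1 was at 14345 ± 327 in control and 22214 ± 658 in SENP7 siRNA libraries, and Mgst3, a microsomal glutathione transferase, at 649 ± 48.1 and 1338 ± 43.5, where Epha8 went from 0.336 ± 0.582 to 108 ± 30.1.

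Markers of vessels, where Eph receptors are also active, were at a low level and summed higher in the SENP7 siRNA libraries. The 6 endothelial markers summed to 59.5 to 77.9 in control and 95.2 to 116 in SENP7 siRNA libraries, most of it from Vwf, while Tie1 was at 0 and Pecam1, Cdh5 and Kdr had means below 10. Tek, the angiopoietin receptor gene, was at 5.44 ± 0.868 and 14.2 ± 2.53, and met the filter through the SENP7 siRNA libraries alone. Of the 2 endothelial markers tested, limma and edgeR called 1 higher, which was Tek for limma, and DESeq2 called 0. By limma 10.2% of all genes tested rose, and nothing is read from a count over 2 genes. Their part in the Eph values was not tested. The 9 neuronal markers summed to 4066 to 5140 in control and 3480 to 4186 in SENP7 siRNA libraries. Leukocyte markers summed to 59.3 to 69.0 and 59.9 to 70.1, with Adgre1 at 0. Itgam was at 6.87 ± 2.11 and 14.8 ± 1.06 and also met the filter through the SENP7 siRNA libraries alone, and of the 2 leukocyte markers tested limma and edgeR called 1 higher and DESeq2 called 0. The 5 markers of dividing cells summed to 5724 to 7842 and 4983 to 6569, and 0 of them passed in limma, edgeR or DESeq2, with 2 lower at an unadjusted p below 0.05. Of all genes tested 10.2% rose and 10.7% fell by limma at an adjusted p below 0.05, and nothing is read from the leukocyte or dividing cell counts either.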

How the data were processed

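RNA-seq was analysed from 6 libraries of C2C12 myotubes, 3 per group. The deposited values were a normalized signal per gene, which from the values themselves is the authors' read count divided by 1 factor per library, since 100% of the values above 0 came out as whole reads within 0.1 read after division by the smallest unit of their library. The submitters' processing notes name STAR 2.6.1d, Trim Galore 0.6.4, bcl2fastq, featureCounts 1.6.4, DESeq2 and the build GRCm38.p6. The authors' log2 fold change, its standard error (a score), a Wald score and p-values were deposited too, per the file headers; of these only the log2 fold change of Epha8 is printed. Of 987 blank gene names, 727 were filled from GENCODE M21, whose coordinates matched for all 54349 shared identifiers.

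limma 3.58.1 (R 4.3.3) was fitted with a mean-variance trend and robust empirical Bayes on log2(normalized count + 1), with group as the sole term, for genes that reached 10 in 3 or more libraries, two-sided, with Benjamini-Hochberg adjustment over 14668 genes and a threshold of 0.05. The procedure was tested on simulated data. Stretches before gene starts are from RefSeq (GRCm38.p6), and all 10 members matched. Members and lists were chosen with earlier results of these data known. Named genes are the members, the other Eph receptors, all ephrins, up to 4 genes of each further list with the smallest adjusted p, tested genes within 500 kb of Epha8, the 5 genes most like Epha8, and Senp7. Other effectors, markers, Zyx and Smt3h2-ps are named outside this rule, chosen after their values were seen. Also tried were a block on replicate number, edgeR 4.0.16 and DESeq2 1.42.0 on the recovered reads, TMM and quantile scaling, pseudocounts of 0.5 and 5, 2 other filters, and each library left out with the same genes tested. P-values measure the spread between these libraries; nothing in the labels says how separately the cultures were grown.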

Additional observations from a re-analysis of the deposited data

How the results depend on the processing

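Over 15 alternative settings the members kept their direction, except that Ephb6 was at -0.00097 without SENP7 siRNA replicate 3. Epha8 ranged from 4.36 to 8.19 on the log2 scale. Leaving out 1 library gave 805 to 2289 rising and 754 to 2413 falling genes of all tested (1492 and 1570 with all), 0 to 1 rising and 1 to 4 falling ephrins, 1 to 5 rising and 3 to 11 falling effectors, and a median log2 fold change of the members of -0.072 to 0.028. Without a filter on low genes 0 ephrins and 2 effectors rose. With only genes of a mean of at least 50, 1 ephrin fell, because Efna3 was not tested, and the median of the members, then 9, was 0.061. With 1 library left out, Efna5 ranged from -0.18 to 0.015 and Zbtb40 from -0.059 to 0.028, both highest without control replicate 3, and Efnb2 from -0.17 to 0.011, highest without control replicate 2; the cause was not tested. The correlation of deviations between same-numbered libraries was 0.13, 0.06 and 0.25 for numbers 1, 2 and 3. Across numbers 1 and 2 it was 0.14 and 0.06, and between a library numbered 3 and one numbered otherwise it was -0.22 to -0.0995. A shift shared by the libraries numbered 3 was not tested, and the main fit does not take the numbers as pairs. With the replicate block 2052 genes rose and 2123 fell, 1 ephrin rose and 2 fell, and 5 effectors rose and 11 fell. A count of 1 read, as for Epha8 in control, gives no more than a counting interval.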

Other observations

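Among 44 other receptor tyrosine kinases, the wider family to which Eph receptors belong, 30 were tested, of which 4 rose and 2 fell in limma's fit, with a median log2 fold change of 0.0046. As 20.9% of all genes tested were called, this count is near the background and nothing is read from it. By edgeR and by DESeq2, 4 rose and 3 fell. Fgfr4, a fibroblast growth factor receptor of muscle, rose from 650.2 ± 16.3 to 1211 ± 194 (limma adjusted p = 0.000748), and the Gas6 receptor gene Axl fell from 8319 ± 289 to 6397 ± 135 (limma adjusted p = 0.00266). Aatk rose from 28.8 ± 11.5 to 62.1 ± 9.66 (limma adjusted p = 0.0192), a call lost without control replicates 1 or 2 or SENP7 siRNA replicates 1 or 3, with adjusted p of 0.0562 to 0.0831. Ntrk3, the neurotrophin-3 receptor gene, was at 19.2 ± 7.39 in control and 5.14 ± 2.15 in SENP7 siRNA libraries. It met the filter through the control libraries alone, which selects for a difference, so its values are given as a description.

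Epha8 was picked for its near absence in control and clear reads after SENP7 siRNA, so the count below is a description. Of the 55401 genes in the table, 27493 had a read in any library. Of these, 2 had at most 1 read over the control libraries and at least 100 over the SENP7 siRNA libraries. The limits were set after the values were seen. These 2 genes were Epha8 and the processed pseudogene Smt3h2-ps, the latter with 0 and 118 reads. In the opposite direction 0 genes met the same limits.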
